A study of Mus musculus with 4 samples.

Results

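The SOX and forkhead (FOX) transcription factor genes were examined for peaks of H3K27me2, histone H3 dimethylated at lysine 27, in mouse zygotes. A gene was a member when its symbol was Sox followed by digits, or Fox followed by a letter and digits, which gave 63 genes (19 SOX and 44 FOX) of 21627 protein-coding genes on chromosomes 1 to 19 and X. A peak belonged to a member when the gene identifier that the authors' annotation gave it, that of the nearest gene, was the member's, which held for 279 of 56036 peaks in 4 lists.

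The lists come from ultra-low-input native ChIP-seq (ULI-NChIP), which sequences nucleosomal DNA that an antibody pulls down from MNase-digested chromatin of few cells. Eggs were fertilized in vitro with PWK/PhJ sperm and collected as zygotes of the PN5 stage, with large, apposed pronuclei. Ezh2m+/p+ zygotes came from C57BL/6J mothers with floxed Ezh2 alleles (Ezh2fl/fl), and Ezh2m-/p+ zygotes from Ezh2fl/fl;Gdf9-Cre mothers, in which Cre recombinase is made in growing oocytes, so both groups had a sperm-borne Ezh2 copy. Each genotype had 1 H3K27me2 library and 1 input library, and strain variants split its reads into a maternal and a paternal list. The deletion could not be checked in peak lists, and the genotype of a list is that in its name. The study's own records name the genotypes in conflicting ways, since the peak numbers go with the names of the lists and the shares of annotation categories go with the other genotype. Each direction between genotypes given here is therefore that of the list names and would turn around if these were exchanged. With 1 library per genotype no difference between genotypes has a replicate check, no p-value was computed, and the 95% intervals given (Wilson for shares, exact binomial for ratios of numbers) cover counting error only.

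SOX proteins bind DNA through an HMG box and bend it, and FOX proteins bind through the winged-helix forkhead domain. Both families hold regulators of early lineages: SOX2 of pluripotent cells and neural progenitors, SOX17 and FOXA2 of endoderm, FOXD3 of pluripotent cells and neural crest, and FOXO3 of the oocyte's primordial follicle. H3K27me2 is laid down by Polycomb repressive complex 2 (PRC2), whose catalytic subunit is EZH2 or EZH1, and is an intermediate on the way to H3K27me3, the mark of silenced developmental genes. CpG-rich promoters of such genes are well-known PRC2 targets in embryonic stem cells.

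The bases just before the start site are shown for each member start that a peak covered, among the RefSeq starts examined, and for Sox2. They are the 100 bases before a start that a paternal peak covered in Foxa1 (chr12:57546112-57546211), Foxa2 (chr2:148046970-148047069), Foxd4 (chr19:24901017-24901116) and Sox11 (chr12:27342719-27342818), a start that a maternal peak covered in Foxn3 (chr12:99450075-99450174), and that of Sox2 (chr3:34649895-34649994), which had no peak within 100 kb in any list. All lie on the minus strand except Sox2, are read 5′ to 3′ from RefSeq (GRCm38.p6), and carry CpG dinucleotides in capitals.
Foxa1: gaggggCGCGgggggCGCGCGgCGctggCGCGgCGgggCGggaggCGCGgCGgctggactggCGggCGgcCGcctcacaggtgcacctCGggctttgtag
Foxa2: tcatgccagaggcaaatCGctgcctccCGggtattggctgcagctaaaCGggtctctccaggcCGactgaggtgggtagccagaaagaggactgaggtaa
Foxd4: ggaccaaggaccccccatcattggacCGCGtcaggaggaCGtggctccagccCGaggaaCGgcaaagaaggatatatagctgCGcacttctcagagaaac
Sox11: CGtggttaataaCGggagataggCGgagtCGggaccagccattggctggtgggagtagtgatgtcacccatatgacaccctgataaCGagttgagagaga
Foxn3: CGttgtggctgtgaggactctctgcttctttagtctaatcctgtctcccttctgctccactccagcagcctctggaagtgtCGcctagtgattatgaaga
Sox2: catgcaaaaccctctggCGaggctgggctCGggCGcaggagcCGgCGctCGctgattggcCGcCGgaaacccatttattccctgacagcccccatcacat

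The window of 300 bases around these starts (250 before, 50 after) held 26 CpG in Foxa1, 12 in Foxa2, 12 in Foxd4, 21 in Sox11, 6 in Foxn3 and 27 in Sox2, against a median of 7 over 32619 RefSeq starts. The Sox2 start was thus as rich in CpG as the Foxa1 start and had no peak. Promoter windows were given for 41 of the 63 members (51 starts). A window was called CpG-rich when its CpG number was at least 0.6 of that expected from its C and G content, which held for 62.7% of the member starts and 36.0% of all starts. Among the members it held for 64.7% of 34 starts of genes with a peak and 58.8% of 17 starts of genes with none. At least 1 CG was present in all member windows and in 94.7% of all windows.

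The peaks of these lists were mostly CpG-poor, at the members as elsewhere. The median ratio of observed to expected CpG in member peaks was 0.184 (maternal) and 0.149 (paternal) for Ezh2m+/p+, and 0.192 and 0.164 for Ezh2m-/p+ zygotes. Over all peaks of the lists it lay between 0.172 and 0.179. None of the maternal member peaks reached a ratio of 0.6, and 4 paternal ones did: the Foxa1 and a Foxd4 peak at the start in Ezh2m+/p+ zygotes, and a Foxd4 and the Sox11 peak at the start in Ezh2m-/p+ zygotes. These were 2.82% and 1.87% of the paternal member peaks, against 0.918% and 0.951% of all paternal peaks. Of all maternal peaks only 0.313% (Ezh2m+/p+) and 0.812% (Ezh2m-/p+) reached it, so the maternal absence is near the share of all peaks. The Sox11 peak was the richest, with a ratio of 0.971 and 67.1% G and C.

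In Ezh2m+/p+ zygotes 40 maternal and 71 paternal member peaks were listed, and in Ezh2m-/p+ zygotes 61 and 107. They made up 0.696% (0.512 to 0.947) of the 5744 peaks and 0.397% (0.315 to 0.501) of the 17863 peaks in the former, and 0.635% (0.495 to 0.815) of 9606 and 0.469% (0.388 to 0.566) of 22823 in the latter. The genome nearest to a member's start site, cut at midpoints between neighbouring starts, was 0.436% (11.5 Mb), a value below the intervals of both maternal lists and inside those of both paternal lists. A rule of the nearest start gave the authors' gene for 85.2% of all peaks. Assigned peaks and nearest stretches thus do not match fully, at members too, and the comparison with 0.436% is approximate. Peaks of the same gene lie in runs, so these intervals are narrower than the true uncertainty.

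More members had a peak than protein-coding genes in general, most clearly in the maternal lists. In the Ezh2m+/p+ maternal list 19 members had a peak (30.2%, 20.2 to 42.4), against 14.6% of all protein-coding genes. In the Ezh2m-/p+ maternal list 23 did (36.5%, 25.7 to 48.9), against 21.1%. In the paternal lists 17 members (27%, 17.6 to 39.0) had a peak in Ezh2m+/p+ zygotes, against 20.3% of genes, and 22 (34.9%, 24.3 to 47.2) in Ezh2m-/p+ zygotes, against 23.8%. The intervals of the maternal lists and of the Ezh2m-/p+ paternal list lay above the share of all genes, and that of the Ezh2m+/p+ paternal list included it. Members also had more room around them: the median stretch nearest to a member's start was 72.3 kb, against 45.4 kb for a protein-coding gene.

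**Figure D1:**
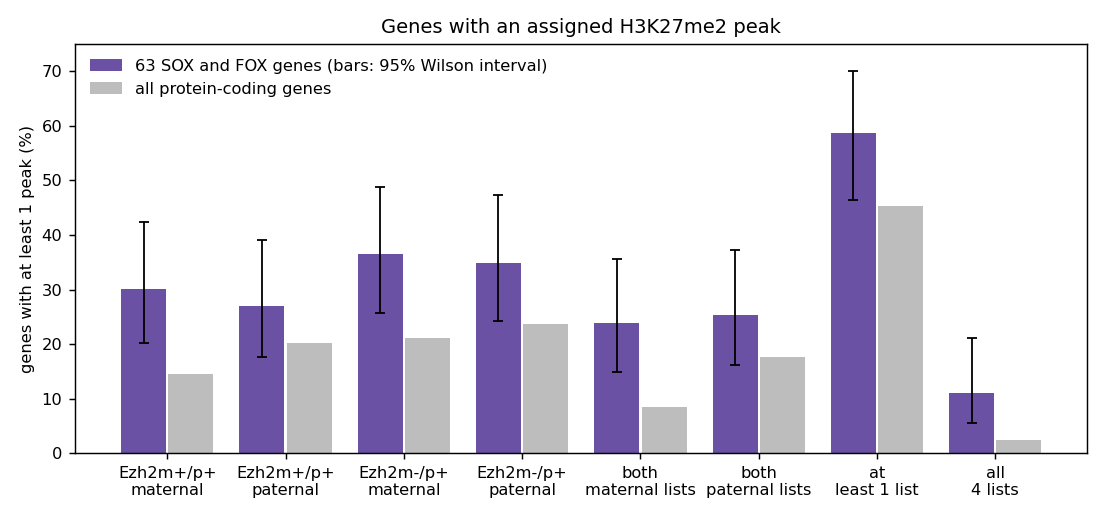
Share of genes (y axis, %) with at least 1 assigned H3K27me2 peak in each list and in combinations of lists, for the 63 SOX and FOX genes (purple, with 95% Wilson intervals) and all protein-coding genes (grey). The members stand above all genes in each set, with 30.2% against 14.6% in the Ezh2m+/p+ maternal list and 11.1% against 2.38% for a peak in all 4 lists.

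A count by fixed distance, whatever gene a peak was assigned to, gave a relatively smaller gap. A peak within 100 kb of the start was found for 33 members (52.4%) in the Ezh2m+/p+ maternal list, against 35.9% of genes, and for 38 (60.3%) in the Ezh2m-/p+ maternal list, against 48.9%. In each paternal list it was found for 29 members (46.0%), against 39.8% of genes in Ezh2m+/p+ zygotes and 44.4% in Ezh2m-/p+ zygotes. The paternal shares were therefore closer to that of all genes by this count. Over the 4 lists, 56 members (88.9%) had such a peak, against 79.9% of genes.

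Both families had members with peaks. Of the SOX genes 10 of 19 (52.6%) and of the FOX genes 27 of 44 (61.4%) had a peak in at least 1 list, against 45.3% of protein-coding genes, so the SOX share was near that of genes in general. Among 6 other transcription factor families the number was 5 of 39 Hox genes, 8 of 9 Pax, 7 of 13 Tbx, 5 of 6 Gata, 14 of 17 Klf and 7 of 15 Pou genes, together 46 of 99 (46.5%). The Hox genes lie packed in clusters, with 0.803 Mb nearest to the starts of all 39, whereas the 44 FOX genes had 6.57 Mb and the 19 SOX genes 4.92 Mb.

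Members with peaks in both parental genomes made up a larger share than among genes in general, and members with peaks of 1 parent a similar share. Of the 37 members with a peak, 14 had peaks in maternal lists only, 10 in paternal lists only and 13 in both. The maternal-only group held Foxn3, Foxp1, Foxd3, Foxo3 and Sox17, and the paternal-only group Sox11, Sox6, Foxd4, Sox14 and Sox10. As a share of the 63 members, 22.2% were maternal only and 15.9% paternal only, against 18.9% and 18.1% of protein-coding genes, and 20.6% were in both, against 8.36%.

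**Figure D2:**
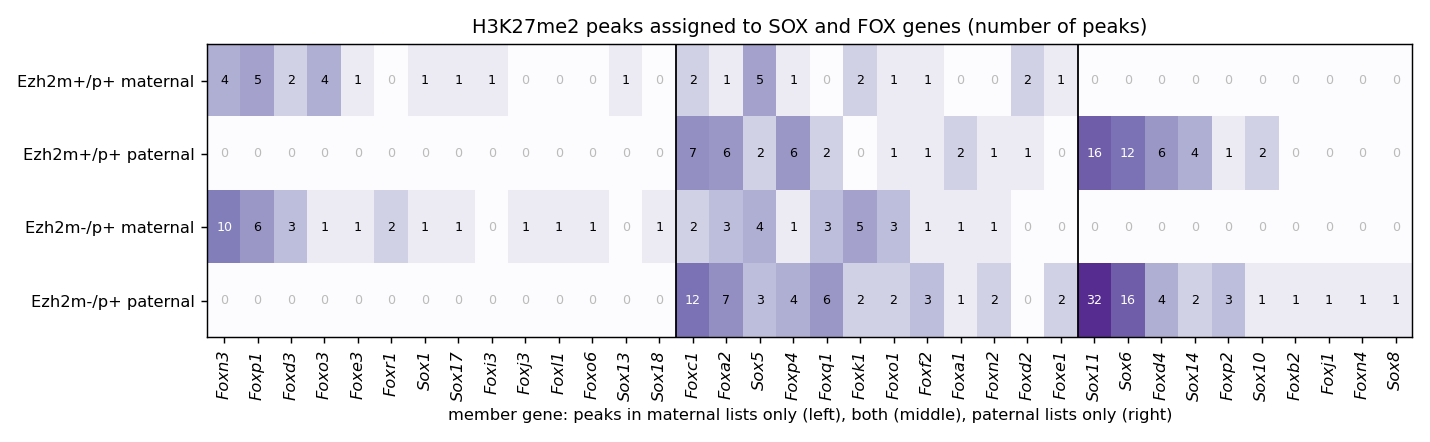
Number of H3K27me2 peaks assigned to SOX and FOX genes with a peak (x axis), in each of the 4 lists (y axis); darker cells hold more peaks. Sox11 had 16 and 32 paternal peaks and no maternal peak, and Foxn3 had 4 and 10 maternal peaks and no paternal peak.

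The paternal lists had more member peaks than the maternal lists, though the ratio was smaller than over all peaks and depended on a few genes and on the length of the lists. The ratio of paternal to maternal member peaks was 1.78 (1.19 to 2.68) in Ezh2m+/p+ zygotes and 1.75 (1.27 to 2.44) in Ezh2m-/p+ zygotes, against 3.11 and 2.38 over all peaks. By depth of coverage, the paper reports less H3K27me2 on the paternal than on the maternal genome. More listed peaks therefore do not mean more of the mark. Sox11, Sox6 and Foxc1 held 35 of the 71 and 60 of the 107 paternal peaks, and 2 peaks in each maternal list. Without these 3 genes there were 38 maternal and 36 paternal peaks in Ezh2m+/p+ zygotes (ratio 0.947), and 59 and 47 in Ezh2m-/p+ zygotes (ratio 0.797). With each list limited to the 5744 peaks of largest fold, the size of the shortest list, and all genes kept, the ratios were 0.575 and 0.614. Ties in fold went to the longer peak. With peaks of a gene less than 10 kb apart counted as 1 stretch, the ratios were 1.18 and 0.981.

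Sox11, a SOXC gene of neural and mesenchymal progenitors (chr12:27334268-27342718), had the most peaks of any member. It had no peak in either maternal list, 16 in the Ezh2m+/p+ paternal list and 32 in the Ezh2m-/p+ paternal list. Of these, 15 and 25 lay before the gene, out to 497 kb and 564 kb from the start, and 1 and 6 lay past its end. The start itself was covered only in Ezh2m-/p+ zygotes, by a peak of 1999 bp with a fold over input of 15.8. Its SOXC relatives Sox4 and Sox12 had no assigned peak, so all 48 SOXC peaks were paternal and all were Sox11's.

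Sox6, a SOXD gene of cartilage, muscle and red cell development (chr7:115470872-116040776), also had paternal peaks only: 12 in the Ezh2m+/p+ list and 16 in the Ezh2m-/p+ list. All 12 and 12 of the 16 lay past the end of this gene of 570 kb. In each list 11 of these 12 formed a dense run and 1 lay nearer to the gene, and all 11 peaks of the run in Ezh2m+/p+ zygotes overlapped a peak of the other genotype. The longest paternal member peaks were in this run, at 5799 bp and 12599 bp. Sox5, its SOXD partner in cartilage, had 5 maternal and 2 paternal peaks in Ezh2m+/p+ zygotes and 4 and 3 in Ezh2m-/p+ zygotes. The third SOXD gene, Sox13, had 1 maternal peak, in Ezh2m+/p+ zygotes.

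**Figure D3:**
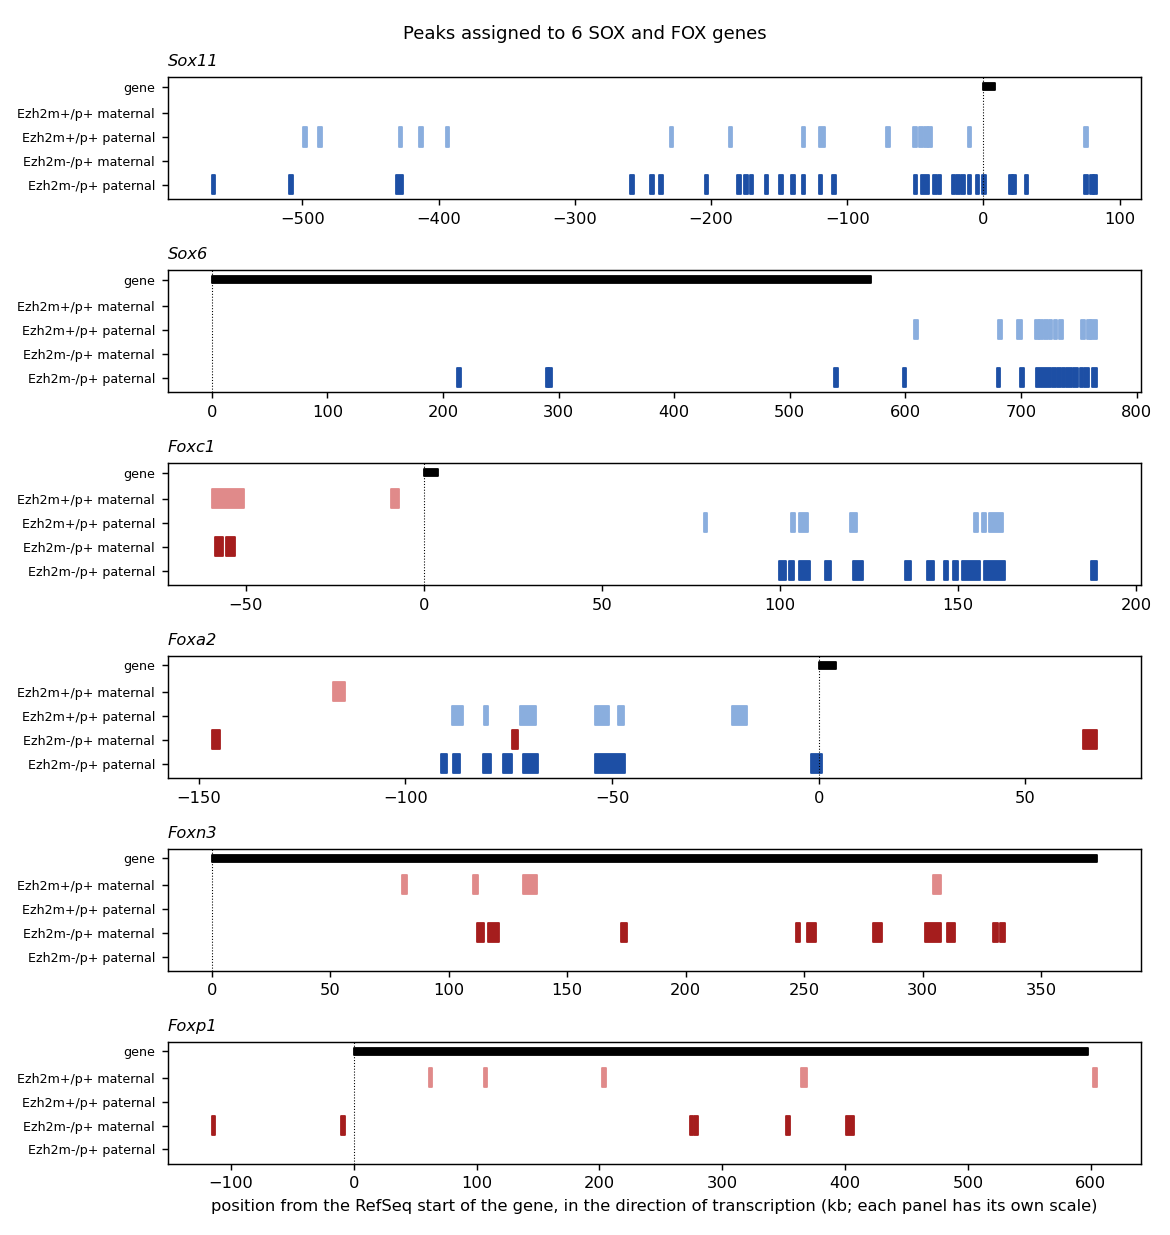
Position of the peaks assigned to 6 genes, in kb from the RefSeq start in the direction of transcription (x axis, a scale for each gene), in the 4 lists (rows; maternal red, paternal blue); the black bar is the gene and bars shorter than 0.4% of the panel are widened to that. The Sox6 run lies past the gene's end, and the Foxc1 maternal and paternal peaks lie on opposite sides of the gene.

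Foxc1, Foxf2 and Foxq1, which lie beside each other on chromosome 13 and serve eye, vessel, palate and gut development, held 40 peaks. The numbers were 3 maternal and 10 paternal in Ezh2m+/p+ zygotes, and 6 and 21 in Ezh2m-/p+ zygotes. For Foxc1 (chr13:31806646-31810635) the parental genomes used opposite sides: the 2 maternal peaks of each genotype lay before the start, and the 7 and 12 paternal peaks lay from 78.6 kb to 189 kb beyond it. Of the Foxc1 peaks, 18 were annotated to introns of the neighbouring gene Gmds, an enzyme gene of GDP-fucose synthesis. The sister cluster Foxf1, Foxc2 and Foxl1 on chromosome 8, looked at after these values were seen, held 1 peak, with 232 kb nearest to its starts against 562 kb for the chromosome 13 cluster.

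Foxa2, a pioneer factor of endoderm, notochord and floor plate (chr2:148042877-148046969), had peaks in all 4 lists. There were 1 maternal and 6 paternal peaks in Ezh2m+/p+ zygotes, and 3 and 7 in Ezh2m-/p+ zygotes. Apart from a peak over the start in Ezh2m-/p+ zygotes, the paternal peaks lay before the gene, at most 90.0 kb from the start. Of the 6 in Ezh2m+/p+ zygotes, 5 overlapped a peak of the other genotype, whereas none of the maternal peaks did. Foxa1, its partner in liver and lung, had a paternal peak at the start in both genotypes, of 3199 bp and 4599 bp with folds of 12.0 and 8.87. Foxa3 had no assigned peak.

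Foxd4 (chr19:24898943-24901016), a FOXD gene, had no maternal peak, 6 paternal peaks in Ezh2m+/p+ zygotes and 4 in Ezh2m-/p+ zygotes. Peaks were assigned to it within 18.3 kb, and its start or the 3 kb around it carried 2 peaks in each paternal list. Within 100 kb of its start 19 and 27 paternal peaks and no maternal peak were listed, where a protein-coding gene had on average 1.92 and 2.33 paternal peaks. Sox10, of neural crest and glia, had 2 and 1 paternal peaks and no maternal peak, with 11 and 10 paternal and no maternal peaks within 100 kb. In these stretches the paternal lists were dense beyond the member itself.

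Foxn3 and Foxp1 were the maternal counterpart. Foxn3, a repressor with roles in liver metabolism and the cell cycle (chr12:99190081-99563667), had no paternal peak and, all inside the gene, 4 maternal peaks in Ezh2m+/p+ zygotes and 10 in Ezh2m-/p+ zygotes. It held the maternal member peak of largest fold in Ezh2m-/p+ zygotes (75.7, 4599 bp), and 2 of its peaks in each list overlapped a peak of the other genotype. Foxp1, of lymphocyte, heart and neuron development (chr6:98925342-99522746), had 5 and 6 maternal peaks and no paternal peak, and held the largest maternal fold in Ezh2m+/p+ zygotes (67.0). No Foxp1 peak of either genotype overlapped a peak of the other. Foxp4 had 1 maternal and 6 paternal peaks in Ezh2m+/p+ zygotes and 1 and 4 in Ezh2m-/p+ zygotes, and Foxp3, the regulatory T cell factor on chromosome X, had none.

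The members named for their roles in the oocyte and early embryo differed in their peaks, with maternal peaks only in Foxo3, Foxd3 and Sox17, peaks of both parents in Foxa2 and Foxo1, and none in Sox2, Foxh1 and Foxl2. Foxo3, which keeps primordial follicles dormant, had no paternal peak, 4 maternal peaks in Ezh2m+/p+ zygotes and 1 in Ezh2m-/p+ zygotes, at 32.4 to 71.2 kb from a start. Foxo1, of insulin signalling and granulosa cells, had 1 maternal and 1 paternal peak in Ezh2m+/p+ zygotes and 3 and 2 in Ezh2m-/p+ zygotes. Foxd3 had 2 and 3 maternal peaks, 16.1 to 82.9 kb before its start, and Sox17 1 in each maternal list, at 36.3 and 27.4 kb from its start. None of the Foxd3, Sox17 or Foxo3 peaks overlapped a peak of the other genotype. No peak was assigned to Sox2, to Foxh1, a partner of SMAD proteins in nodal signalling, or to Foxl2, a factor of the ovary's granulosa cells.

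Of the 26 members without an assigned peak, 21 had a peak within 100 kb that the annotation gave to another gene (80.8%, against 79.9% of protein-coding genes with any peak within that distance). Foxh1 had 14 such peaks over the 4 lists and Foxl2 3. The remaining 5 had none: Sox2, Sox3, Sox7, Sox9 and Foxp3. All 4 members on chromosome X (Foxo4, Foxp3, Foxr2 and Sox3) were without an assigned peak, with 388 kb nearest to their starts. Peaks were few on that chromosome as a whole, where 19.6% of 966 protein-coding genes had one in at least 1 list. Neither absence says that the mark was missing, since a peak had to pass the authors' limits on length and fold.

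Member peaks lay farther from start sites than peaks in general. The median distance was 41.1 kb (maternal) and 80.0 kb (paternal) for Ezh2m+/p+, and 47.1 and 96.3 kb for Ezh2m-/p+ zygotes. Over all peaks of the same lists it was 21.0, 23.7, 20.1 and 25.7 kb. Beyond 100 kb lay 22.5% and 26.2% of the member peaks in the Ezh2m+/p+ and Ezh2m-/p+ maternal lists and 45.1% and 46.7% in the paternal lists, against 15.7%, 16.0%, 20.1% and 22.5% of all peaks. Sox11, Sox6 and Foxc1 held 27 of the 32 paternal peaks beyond 100 kb in Ezh2m+/p+ zygotes and 39 of the 50 in Ezh2m-/p+ zygotes, and none of the maternal ones. Without these 3 genes, left out after the values were seen, the paternal medians were 33.4 and 49.7 kb, still above those of all peaks, and 13.9% and 23.4% of the paternal peaks lay beyond 100 kb, below the 20.1% of all peaks in Ezh2m+/p+ zygotes and near the 22.5% in Ezh2m-/p+ zygotes.

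**Figure D4:**
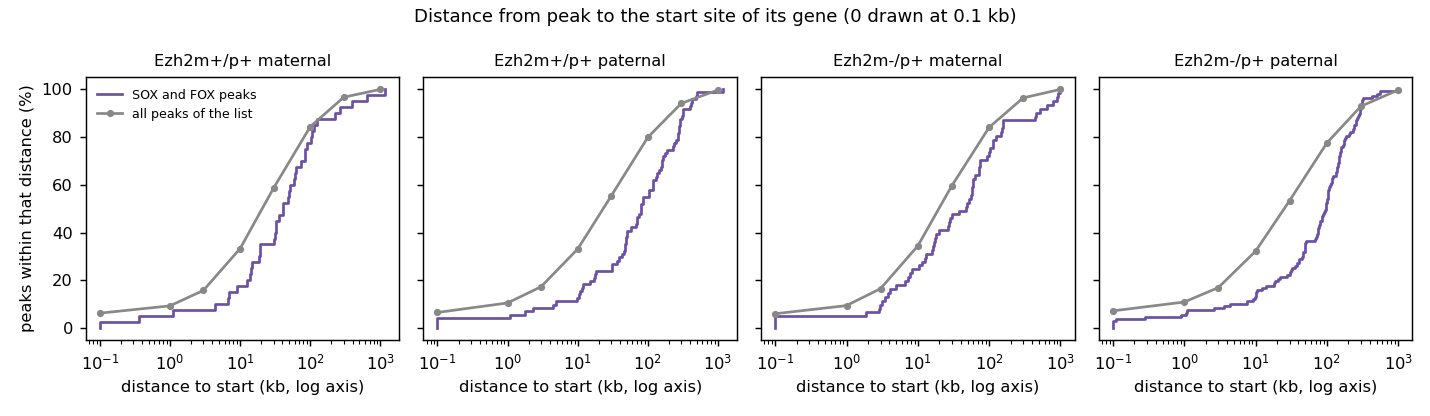
Cumulative share of peaks (y axis, %) within a given distance of the start site of their gene (x axis, kb, log scale; 0 is drawn at 0.1 kb), for SOX and FOX peaks (purple steps) and all peaks (grey points) in each list. The purple curves lie below the grey ones up to 100 kb in all 4 lists, with medians of 41.1 to 96.3 kb against 20.1 to 25.7 kb.

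Peaks within 3 kb of a start were fewer among members than among all peaks, in the paternal lists through 3 genes. For Ezh2m+/p+ zygotes they numbered 3 of 40 maternal (7.5%, 2.58 to 19.9) and 6 of 71 paternal peaks (8.45%, 3.93 to 17.2). For Ezh2m-/p+ zygotes they numbered 6 of 61 (9.84%, 4.59 to 19.8) and 9 of 107 (8.41%, 4.49 to 15.2). All peaks had 15.8%, 17.3%, 16.5% and 16.9% there. The intervals of both paternal lists lay below the share of all peaks, that of Ezh2m+/p+ zygotes barely, and the maternal intervals included it. Without Sox11, Sox6 and Foxc1 the paternal shares were 16.7% and 14.9%, near those of all peaks.

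Counted as genes, the members did not stand apart at promoters. A peak within 3 kb was found in 3 members (4.76%) in the Ezh2m+/p+ maternal list, against 3.64% of genes, and in 4 (6.35%) in its paternal list, against 8.77%. In Ezh2m-/p+ zygotes it was found in 3 members (4.76%) in the maternal list, against 5.96%, and in 8 (12.7%) in the paternal list, against 11.2%. The paternal genes were Foxa1, Foxd4, Foxp4 and Sox10 in both genotypes, and Foxa2, Foxn4, Sox6 and Sox11 in Ezh2m-/p+ zygotes. The maternal genes were Foxn3 in both genotypes, Foxp4 and Sox5 in Ezh2m+/p+ zygotes, and Foxp1 and Foxj3 in Ezh2m-/p+ zygotes.

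Gene by gene, many members recurred in both genotypes, and in the maternal lists a larger share than of genes in general. In the maternal lists 15 members recurred, 78.9% of the 19 with a peak in Ezh2m+/p+ zygotes and 65.2% of the 23 with one in Ezh2m-/p+ zygotes, against 57.8% and 40.1% of the protein-coding genes with a peak. No interval was computed for these shares of few genes, and members had more room around them, as given above. The 15 were 23.8% of the members (15.0 to 35.6) against 8.44% of all protein-coding genes. In the paternal lists 16 recurred, 94.1% of 17 and 72.7% of 22, near the 86.8% and 74.0% of protein-coding genes with a peak. These were 25.4% of the members (16.3 to 37.3) against 17.6% of genes. Peaks in at least 1 list were found for 58.7% of members, against 45.3% of genes, and in all 4 lists for 7 members (11.1%, against 2.38%), among them Foxa2, Foxc1, Foxo1 and Sox5. Foxa1, Foxk1, Foxn2 and Foxq1 had peaks in 3 lists.

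Position by position, recurrence was a paternal feature. In the paternal genome 51 of the 71 member peaks of Ezh2m+/p+ zygotes (71.8%, 60.5 to 81.0) overlapped a peak of Ezh2m-/p+ zygotes by at least 1 bp, and 39 of 107 (36.4%, 27.9 to 45.9) the other way round. In the maternal genome it was 4 of 40 (10%, 3.96 to 23.1) and 5 of 61 (8.20%, 3.55 to 17.8). All peaks of the lists had 66.1%, 45.7%, 9.47% and 5.78% in the same order, and each interval of the members included the value of its list. With an overlap of at least 50% of both peaks, 18 of 71 (25.4%, 16.7 to 36.6) and 17 of 107 (15.9%, 10.2 to 24.0) paternal member peaks were shared, against 31.4% and 24.6% of all peaks. The first interval included the value of all peaks, and the second lay just below it. No maternal member peak was shared by this measure (0 of 40, with an interval up to 8.76%, and 0 of 61, up to 5.92%), and of all maternal peaks 4.94% and 2.96% were, inside these intervals. The maternal genes that recurred mostly did so with peaks at other positions: only Foxc1, Foxe3 and Foxn3 had overlapping maternal peaks.

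**Figure D5:**
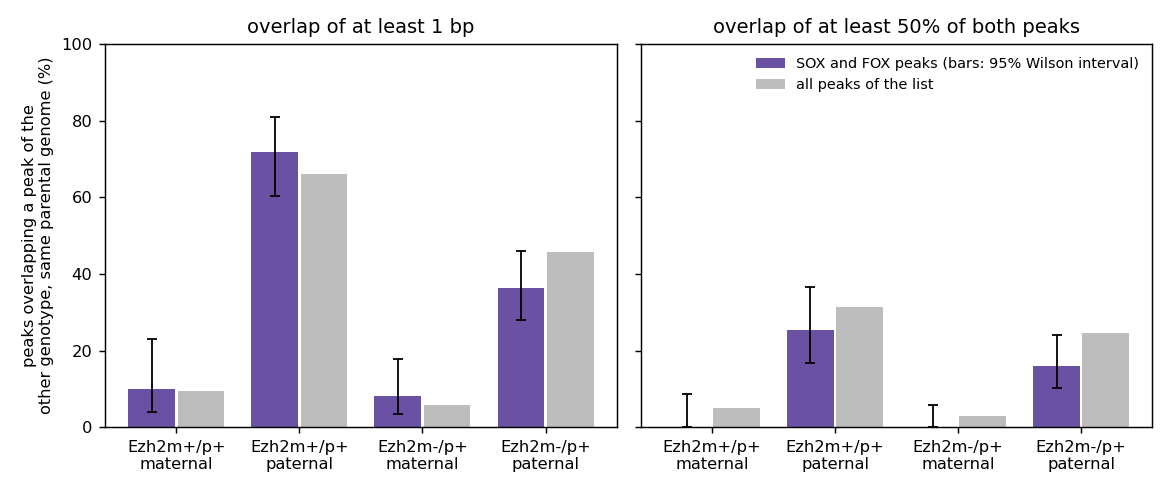
Share of peaks (y axis, %) of each list that overlap a peak of the other genotype in the same parental genome by at least 1 bp (left) or by at least 50% of both peaks (right), for SOX and FOX peaks (purple, with 95% Wilson intervals) and all peaks (grey). Paternal member peaks overlapped in 71.8% and 36.4% at 1 bp and maternal ones in 10% and 8.20%.

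Between the parental genomes almost nothing overlapped, at the members as elsewhere: of all peaks, 0.418% (maternal) and 0.140% (paternal) for Ezh2m+/p+, and 0.416% and 0.180% for Ezh2m-/p+ zygotes overlapped a peak of the other parent. The only pair of overlapping maternal and paternal member peaks was at Foxd2 in Ezh2m+/p+ zygotes, 30.5 and 31.1 kb past its start, named here after the values were seen. In Ezh2m-/p+ zygotes none of the 61 maternal and 107 paternal member peaks overlapped.

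From the lists named Ezh2m+/p+ to those named Ezh2m-/p+ the number of member peaks went from 40 to 61 in the maternal lists (ratio 1.53, 1.01 to 2.33) and from 71 to 107 in the paternal lists (1.51, 1.11 to 2.06). The ratios of all peaks were 1.67 and 1.28, inside both intervals. By the study's records the Ezh2m+/p+ libraries were sequenced more deeply, and these numbers were not adjusted for depth. Maternal FOX peaks went from 32 to 54 and maternal SOX peaks from 8 to 7, and paternal SOX peaks from 36 to 55 and FOX peaks from 35 to 52. Sox11, with 16 and 32 peaks, gave 16 of the 36 added paternal peaks.

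The size and fold of member peaks followed their lists. The median length was 2899 bp (maternal) and 1799 bp (paternal) for Ezh2m+/p+, and 2399 and 1999 bp for Ezh2m-/p+ zygotes. The median fold was 7.46 and 36.1 in the former and 24.5 and 15.8 in the latter, beside 7.37, 36.1, 23.7 and 15.8 for all peaks. The largest fold was 221, at Sox14, a neural SOXB gene, in the Ezh2m-/p+ paternal list, and 169, at Foxc1, in the Ezh2m+/p+ paternal list. Many peaks had the same fold, with 12 of the 71 Ezh2m+/p+ paternal peaks at 48.1 and 11 of the 107 Ezh2m-/p+ paternal peaks at 9.85. These lists held 29 and 41 distinct folds among member peaks, so the fold was not read as a fine measure of the mark.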

How the data were processed

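H3K27me2 was profiled by ULI-NChIP-seq in Ezh2m+/p+ and Ezh2m-/p+ zygotes, with 1 library and 1 input each. Per the submitters' processing notes and the study's methods, the authors trimmed reads (Trimmomatic 0.38), aligned them to mm10 (Bowtie2), filtered them (SAMtools), removed duplicates (Picard), split them by parental strain (SNPsplit), called peaks against input in windows of 200 bp (SICER), retained those longer than 1000 bp whose fold exceeded 5, and used ChIPseeker for annotation. The shortest listed peaks are 999 bp, 1 bp under 5 windows, so the limit on length includes its own value. The deposited lists give each peak's position, length, nearest gene, distance to a start site and fold, a ratio of H3K27me2 to input reads computed by the authors. A deposited coverage table (chromosome fractions under reads) was not used. Read counts behind single peaks are unknown. The study's reporting summary gives a greater sequencing depth for the Ezh2m+/p+ H3K27me2 and input libraries than for the Ezh2m-/p+ ones. Peak numbers, folds and lengths were compared here without adjustment for this difference.

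Genotypes were taken from the names of the lists. Gene identifiers were matched to RefSeq symbols (11459 of 11472), and 94.6% of the transcripts named for member peaks had the same ends in GENCODE vM21, whose build, GRCm38, is that of the lists. Members and gene lists were chosen with earlier results of these data known. Peaks within 3 kb of a start follow the authors' promoter category, and distances are to the start of the annotated transcript. Overlap was at least 1 bp, checked on simulated data. Base composition was read from the GRCm38.p6 sequence. Named genes were members with a peak within 3 kb of a start, in at least 3 lists or overlapping a peak of the other genotype, the 3 with most peaks, those with the largest fold or longest peak of a list, those on chromosome X, and Sox2, Sox17, Foxa2, Foxd3, Foxh1, Foxl2, Foxo1 and Foxo3. Sox4, Sox7, Sox9, Sox12, Sox13 and Foxa3 fall outside this rule and were named after their values were seen. The values of 1 member are not reported here, though totals count it. Alternatives were limits of 10 on the fold and 2000 bp on the length, equal list sizes, no chromosome X, assignment by overlap with the gene or the 5 kb before it, leaving out the 3 members with most peaks, a reciprocal overlap of 50%, the other list of a pair, and promoters by distance. Scripts ran under Python 3.11.15 (pandas 2.3.3, numpy 2.4.6, matplotlib 3.10.9, scipy 1.17.1).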

Additional observations from a re-analysis of the deposited data

Results flagged for a closer look

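Between the genotypes, the differences in 4 measures of the member peaks had opposite signs in the maternal and paternal lists, though some were very small. The difference was not tested, since each genotype had 1 library. From the lists named Ezh2m+/p+ to those named Ezh2m-/p+, SOX peaks changed by -1 in the maternal lists (8 to 7) and by 19 in the paternal lists (36 to 55). Sox11 alone went from 16 to 32 paternal peaks, so most of the paternal change is that of 1 gene. All peaks rose in both, by ratios of 1.67 (maternal) and 1.28 (paternal). The share within 3 kb of a start changed by 2.34 percentage points in the maternal lists and by -0.0395 in the paternal lists, which is almost no change (8.45% and 8.41%). The median fold changed by 17.0 in the maternal and by -20.3 in the paternal lists, and the median length by -500 bp and 200 bp. The median fold of all peaks moved the same ways, from 7.37 to 23.7 and from 36.1 to 15.8. So did their median length, from 2999 to 2199 bp and from 1799 to 1999 bp, and their share within 3 kb of a start, from 15.8% to 16.5% and from 17.3% to 16.9%, so these 3 measures are not particular to the members.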

How the results depend on the processing

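No paired analysis was possible because each genotype had 1 library. The paternal to maternal ratio of member peaks was the least stable result. It was reversed in Ezh2m+/p+ zygotes with peaks over 2000 bp only (0.788), lists of equal size (0.575) or without Sox11, Sox6 and Foxc1 (0.947), and became 3.81 with folds over 10 and 1 by gene overlap. In Ezh2m-/p+ zygotes it was reversed with equal list size (0.614), gene overlap (0.793) and without those genes (0.797). Stretches, an alternative chosen after seeing the data, gave 1.18 and 0.981, with 45 and 52 paternal stretches. The Ezh2m-/p+ to Ezh2m+/p+ ratio stayed above 1 in all alternatives run and moved only for maternal peaks with folds over 10 (3).

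Assignment by overlap with the gene or 5 kb before it left 14, 14, 29 and 23 peaks (Ezh2m+/p+ maternal, paternal, Ezh2m-/p+ maternal, paternal), or 0.244%, 0.0784%, 0.302% and 0.101% of the lists, in 5, 6, 7 and 11 genes. A fold over 10 left 16 Ezh2m+/p+ maternal peaks in 11 genes. A length over 2000 bp left 26 (10 genes), 36 and 47 peaks in the Ezh2m+/p+ paternal, Ezh2m-/p+ maternal and Ezh2m-/p+ paternal lists. Equal list size left 23 peaks in 8 genes and 27 in 11 in the paternal lists, and a promoter share of 3.70% in Ezh2m-/p+. Without the 3 genes, 36 (0.202%) and 47 (0.206%) paternal peaks were left. A reciprocal overlap of 50% gave 0%, 25.4%, 0% and 15.9% in the order above (all peaks 4.94%, 31.4%, 2.96% and 24.6%), and the paternal shares of the other list of the pair were 36.4% and 71.8%. Leaving out chromosome X and promoters by distance changed nothing beyond these limits.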
